A study of Homo sapiens with 8 samples.

Results

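The nuclear-encoded subunits of the 5 oxidative phosphorylation complexes were followed in NCI-H1299 (H1299 below) and NCI-H2009 (H2009 below), established human lines of lung cancer. Hairpins carried by lentivirus had been used against PTK7, a receptor tyrosine kinase-like protein without catalytic activity. Members were the genes that a single-symbol probe set of the array names NDUFA, NDUFB, NDUFC, NDUFS or NDUFV plus a number, SDHA to SDHD, UQCR or ATP5 plus any ending, or COX4 to COX8 plus any ending, with pseudogenes left out. This rule used gene names only and found 78 of 18404 genes, namely 33 of complex I, 3 of complex II, 7 of complex III, 17 of complex IV and 18 of ATP synthase. Each line carried in turn a lentiviral short hairpin RNA named PTK7-1 or PTK7-2, or a control hairpin directed at GFP or luciferase (LUC), a target that human cells do not have. Puromycin selection removed uninfected cells, and RNA was taken 4 days after infection. There was 1 array for each of the 4 hairpins in each of the 2 lines, 8 in all. The 4 groups of 2 arrays were therefore H1299 with PTK7 hairpins, H1299 with control hairpins, H2009 with PTK7 hairpins and H2009 with control hairpins. Within a group the hairpins differ, so its arrays are not repeats of a single treatment.

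Oxidative phosphorylation takes place in the inner mitochondrial membrane. Complexes I and II pass electrons from NADH and succinate to ubiquinone, complex III passes them on to cytochrome c and complex IV to oxygen, and complexes I, III and IV pump protons that ATP synthase uses to make ATP. Most subunits are encoded in the nucleus, the rest in mitochondrial DNA, and lung cancer cells, like most tumour cells, use this pathway beside glycolysis. The factor NRF1, the ETS-family factor GABP and YY1 are known to bind the promoters of many of these nuclear genes.

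The 4 genes that passed the threshold between the PTK7 hairpins, NDUFB10, ATP5MC1, COX8A and NDUFB3, are shown by their promoters, because the results below turn on them. RefSeq windows on GRCh38.p14 run from 250 bases before to 50 bases after the annotated start, 5′ to 3′ on the gene's strand, which is the plus strand for all 4. They lie at chr16:1959288-1959587 for NDUFB10, chr17:48892537-48892836 for ATP5MC1, chr11:63974370-63974669 for COX8A and chr2:201071751-201072050 for NDUFB3. Capitals mark the only match in these 4 windows to any of 3 short cores searched on both strands, GCGCATGC for NRF1, CCGGAAG for ETS factors and AAGATGGCG for YY1.
NDUFB10: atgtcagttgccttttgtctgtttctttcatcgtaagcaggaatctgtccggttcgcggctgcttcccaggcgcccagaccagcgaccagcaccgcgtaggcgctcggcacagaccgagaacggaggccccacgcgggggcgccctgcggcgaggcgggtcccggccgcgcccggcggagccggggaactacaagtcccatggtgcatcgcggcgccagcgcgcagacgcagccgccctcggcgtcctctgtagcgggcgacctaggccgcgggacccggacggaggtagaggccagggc
ATP5MC1: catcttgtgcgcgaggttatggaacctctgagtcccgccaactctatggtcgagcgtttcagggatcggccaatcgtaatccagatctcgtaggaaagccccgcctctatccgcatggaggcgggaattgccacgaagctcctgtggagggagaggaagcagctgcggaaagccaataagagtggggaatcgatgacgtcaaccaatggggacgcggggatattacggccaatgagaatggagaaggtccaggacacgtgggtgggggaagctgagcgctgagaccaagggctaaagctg
COX8A: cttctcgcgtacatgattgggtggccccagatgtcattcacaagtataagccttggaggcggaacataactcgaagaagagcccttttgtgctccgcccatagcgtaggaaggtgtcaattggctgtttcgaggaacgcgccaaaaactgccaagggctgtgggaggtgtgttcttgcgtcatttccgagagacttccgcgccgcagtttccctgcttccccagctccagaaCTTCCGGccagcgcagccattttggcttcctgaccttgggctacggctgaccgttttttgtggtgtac
NDUFB3: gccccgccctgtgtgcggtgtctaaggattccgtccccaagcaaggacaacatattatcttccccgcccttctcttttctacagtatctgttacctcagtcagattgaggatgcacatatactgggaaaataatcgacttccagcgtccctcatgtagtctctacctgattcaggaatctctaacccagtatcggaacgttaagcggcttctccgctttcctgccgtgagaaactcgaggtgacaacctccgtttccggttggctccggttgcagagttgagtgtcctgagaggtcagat

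The capitals in COX8A are the ETS core on the opposite strand. Of the 78 members, 66 had a window in the RefSeq table. Among these 66, the NRF1 core was present in 12 (18.2%), among them NDUFS7, NDUFB4 and COX5B, against 3.27% of 27305 promoters. The ETS core was present in 19 members (28.8%), among them COX4I1, COX6B1 and NDUFS1, against 10.7% of all promoters. The YY1 core was present in 7 members (10.6%), among them NDUFA9 and UQCRC1, against 1.85%. The last letters of the ETS core can be the first of the YY1 core, and 1 member, ATP5PF, held both. These are matches of letters, and a window without one says nothing about the factor.

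PTK7 itself read 5.63 with PTK7-1 and 5.53 with PTK7-2, against 5.73 with GFP and 6.03 with LUC, in H1299 on the log2 scale of the arrays. In H2009 it read 5.63 with PTK7-1 and 5.94 with PTK7-2, against 6.64 with GFP and 6.86 with LUC. Both PTK7 hairpins were thus below both controls in each line, and PTK7-1 gave the higher of the PTK7 readings in H1299 and the lower in H2009. In H1299, however, both PTK7-1 and PTK7-2 lay closer to GFP than GFP did to LUC. All 4 H1299 readings were also below the median gene of their arrays, 6.27 to 6.30. A fall of PTK7 on either H1299 PTK7 array was thus not beyond the gap between the controls. Array medians lay between 5.31 and 5.41, and Pearson r within a group, across genes, ran from 0.981 to 0.997. Epithelial markers averaged 6.38 to 7.05 on the 4 H1299 arrays and 11.3 to 11.4 on the 4 H2009 arrays, which is low in H1299 for a line of epithelial origin. Leukocyte, fibroblast, endothelial and muscle marker lists averaged 3.76 to 4.87 on all 8 arrays. The 3 markers of the lung adenocarcinoma lineage averaged 4.44 to 4.91 in H1299, at the level of the lists of other cell types, and 5.52 to 6.10 in H2009. A lower reading from a culture can mean fewer cells that express the gene or less RNA per cell, and these cannot be told apart here.

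The main pattern among the subunits was a difference between the PTK7 hairpins. With PTK7-1, 67 of the 78 members (85.9%) read lower than with PTK7-2 as a mean over the lines, with a median log2 difference of -0.19, against 54.5% of all genes and a median of -0.02. The median was -0.10 without the H1299 PTK7-1 array and -0.29 without the H2009 PTK7-1 array. Relative to the control arrays of the same line, the median member stood at -0.21 with PTK7-1 and 0.08 with PTK7-2 in H1299, and at 0.01 with PTK7-1 and 0.12 with PTK7-2 in H2009. Over all genes the same medians were 0.02 and -0.02 in H1299, and 0.01 and 0.06 in H2009. The median member was thus below the controls on 1 array, PTK7-1 in H1299, and at or above them on the other PTK7 arrays.

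**Figure D1:**
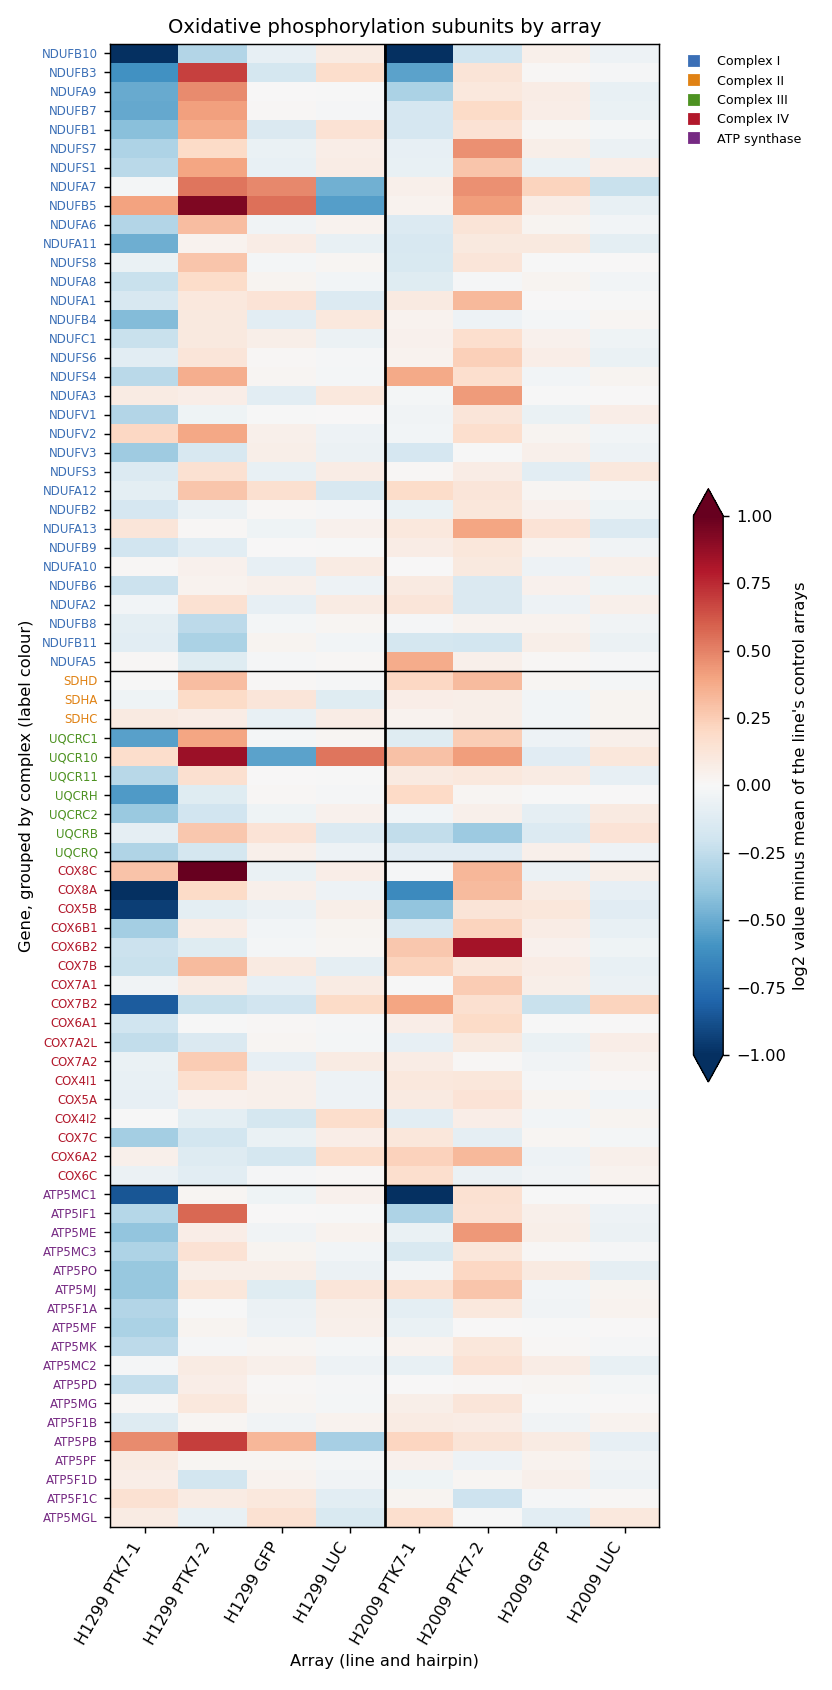
Each row is 1 of the 78 subunit genes, grouped by complex, and each column is 1 array, PTK7 hairpins left of the controls of their line. Colour is the log2 value minus the mean of that line's GFP and LUC arrays, from blue (lower) to red (higher), with values beyond 1 shown at the ends of the scale. The PTK7-1 column of H1299 is mostly blue, the PTK7-2 columns are mostly pale red, and NDUFB10 and ATP5MC1 are dark blue with PTK7-1 in both lines.

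NDUFB10, an accessory subunit in the membrane arm of complex I encoded on chromosome 16, showed the largest difference from the controls with PTK7-1. In H1299 NDUFB10 read 6.77 with PTK7-1 and 8.48 with PTK7-2, against 8.70 with GFP and 8.86 with LUC. In H2009 NDUFB10 read 7.19 with PTK7-1 and 8.37 with PTK7-2, against 8.62 with GFP and 8.52 with LUC. In both lines the PTK7-1 array lay more than 1 log2 unit below the other 3, and PTK7-2 lay slightly below both controls. NDUFB10 fell 3.24-fold with PTK7-1 relative to the control hairpins, a log2 difference of -1.70 ± 0.16 (limma adjusted p = 0.00849). Between PTK7-1 and PTK7-2 the difference was -1.45 ± 0.19 (adjusted p = 0.0115), and for PTK7-2 relative to controls it was -0.25 ± 0.16, which did not pass (adjusted p = 0.535). Here and below, ± marks the standard error of the fit unless SD is written. A hairpin relative to controls sets 2 arrays against 4 control arrays. Differences between 2 hairpins, within a line, or between the lines under control hairpins set 2 arrays against 2. Averages over lines and hairpins set 4 PTK7 arrays against 4 control arrays.

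ATP5MC1, on chromosome 17, is 1 of 3 genes that encode the c subunit of the rotating membrane ring of ATP synthase. In H1299 ATP5MC1 read 11.15 with PTK7-1 and 12.03 with PTK7-2, against 11.97 with GFP and 12.06 with LUC. In H2009 ATP5MC1 read 10.52 with PTK7-1 and 11.89 with PTK7-2, against 11.74 with GFP and 11.74 with LUC. PTK7-1 was the lowest array of each line, while PTK7-2 lay within 0.15 log2 units of the nearer control. The fall with PTK7-1 was 2.06-fold relative to controls (-1.04 ± 0.14, adjusted p = 0.0192) and 2.18-fold relative to PTK7-2 (-1.13 ± 0.16, adjusted p = 0.0136). The other c subunit genes did not pass, with PTK7-1 minus PTK7-2 differences of -0.16 ± 0.13 for ATP5MC2 and -0.36 ± 0.13 for ATP5MC3.

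COX8A, on chromosome 11, encodes the common form of a small membrane-spanning subunit of complex IV, cytochrome c oxidase. In H1299 COX8A read 9.70 with PTK7-1 and 10.99 with PTK7-2, against 10.85 with GFP and 10.74 with LUC. In H2009 COX8A read 9.90 with PTK7-1 and 10.85 with PTK7-2, against 10.62 with GFP and 10.46 with LUC. PTK7-1 was again the lowest array of each line and PTK7-2 the highest. COX8A fell 1.82-fold with PTK7-1 relative to controls (-0.87 ± 0.14, adjusted p = 0.0339) and 2.17-fold relative to PTK7-2 (-1.12 ± 0.16, adjusted p = 0.0138). With PTK7-2 it stood 0.25 ± 0.14 from the controls, which did not pass.

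NDUFB3, another accessory subunit of the complex I membrane arm, encoded on chromosome 2, passed only in the direct comparison of the PTK7 hairpins. In H1299 NDUFB3 read 6.90 with PTK7-1 and 8.18 with PTK7-2, against 7.32 with GFP and 7.68 with LUC. In H2009 NDUFB3 read 7.33 with PTK7-1 and 8.00 with PTK7-2, against 7.87 with GFP and 7.85 with LUC. PTK7-1 was the lowest and PTK7-2 the highest array in each line, on either side of the controls. The difference between the PTK7 hairpins was -0.98 ± 0.19, or 1.97-fold lower with PTK7-1 (adjusted p = 0.0386), made up of -0.57 ± 0.17 for PTK7-1 and 0.41 ± 0.17 for PTK7-2 relative to controls, neither of which passed.

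**Figure D2:**
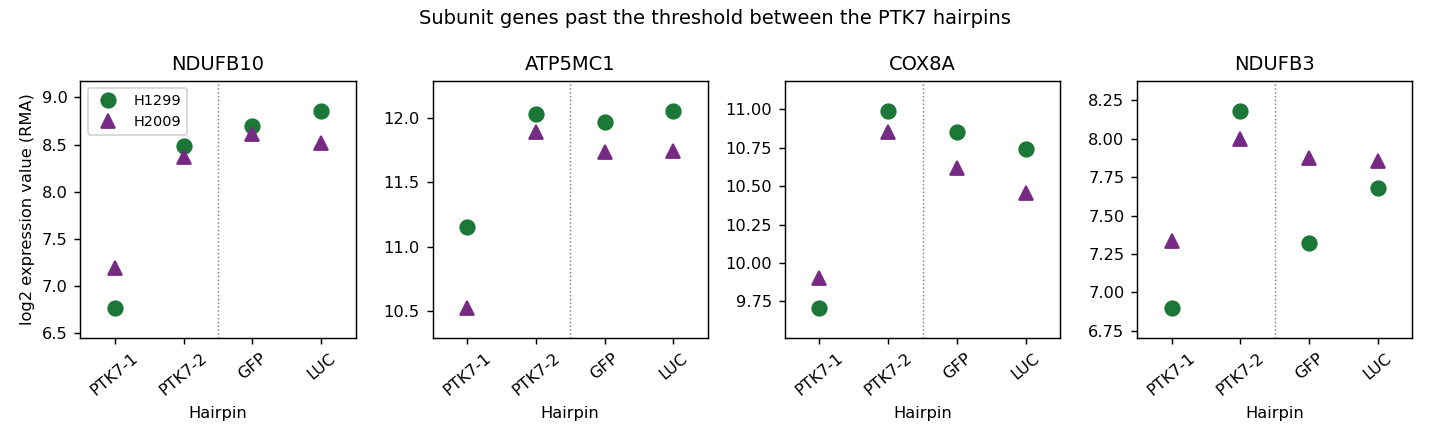
Log2 expression value (vertical, a separate scale in each panel) of NDUFB10, ATP5MC1, COX8A and NDUFB3 by hairpin (horizontal), with the PTK7 hairpins left of the dotted line and the controls right of it. Circles are H1299 and triangles H2009, 1 array per point. In each panel both PTK7-1 points lie below the other points of their line.

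These were 3 of 78 members past the threshold with PTK7-1 (3.85%), against 1.23% of all genes, all 3 lower (0.978% of genes were called lower) and 0 higher (0.25% of genes). At an unadjusted p under 0.05, 8 members were lower (10.3%, against 7.76% of genes), close to the share over all genes, and 0 were higher (5.18% of genes). Between PTK7-1 and PTK7-2, 4 members passed (5.13%, against 3.73% of genes), 4 lower with PTK7-1 (1.79% of genes) and 0 higher (1.94% of genes). At an unadjusted p under 0.05, 21 were lower with PTK7-1 than with PTK7-2 (26.9%, against 10.1% of genes) and 0 higher (8.22% of genes). No member passed with PTK7-2 in limma (2.15% of genes did), with 11 higher at an unadjusted p under 0.05 (14.1%, against 8.32% of genes) and 0 lower (8.51% of genes). The median member read 8.88 to 9.24 by array, and the median gene 6.27 to 6.33. Shares over all genes thus include many dimmer genes, and shares among genes of like brightness are not given.

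The calls with PTK7-1 depended on single arrays. NDUFB10 alone passed without either LUC array or without PTK7-1 in H2009, and 0 members passed without either GFP array (adjusted p for NDUFB10 of 0.0532 without H1299 GFP and 0.0504 without H2009 GFP) or without PTK7-1 in H1299 (0.0949). With GFP or LUC alone as the control COX8A did not pass (adjusted p = 0.0592 and 0.0886). Between the PTK7 hairpins 0 members passed without either of the H1299 PTK7 arrays, 2 (NDUFB10 and COX8A) without PTK7-1 in H2009, and 7 without PTK7-2 in H2009. NDUFB3 was also lost without any single control array.

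Counted by array rather than by mean, 50 of 78 members (64.1%) read lower with PTK7-1 than with PTK7-2 in each line, against 30.3% of all genes, and 6 (7.69%) read higher in each line, against 25% of genes. In H1299, 65 members (83.3%) were lower with PTK7-1 than with PTK7-2, against 45.5% of all genes, with a median difference of -0.29 against 0.03 for all genes. In H2009, 57 (73.1%) were lower, against 59.8% of all genes, with a median of -0.12 against -0.07 for all genes. The shift relative to all genes was thus larger in H1299. With 1 array per hairpin and line, whether the hairpin difference varies between lines was not tested.

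**Figure D3:**
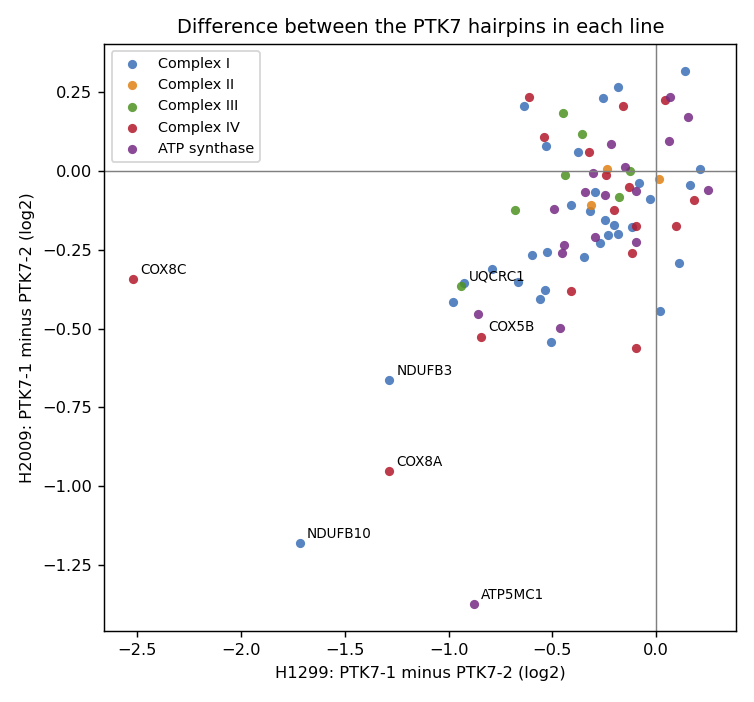
Each point is 1 subunit gene, coloured by complex, with the PTK7-1 minus PTK7-2 log2 difference in H1299 (horizontal) and in H2009 (vertical), and grey lines at 0. Of 78 points, 50 lie in the lower left, where both differences are below 0, and NDUFB10, ATP5MC1, COX8A and NDUFB3 lie far out there. COX8C has the largest difference in H1299, -2.52, and one of -0.34 in H2009.

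Set against the controls in each line, 26 members (33.3%) had the PTK7-1 array below both control arrays in both lines, against 17.4% of genes, and 5 (6.41%) had it above both, against 18% of genes. With PTK7-2 the balance was the other way, with 32 members (41%) above both controls in both lines, against 18.1% of genes, and 5 (6.41%) below both, against 15.2%. The median member difference was -0.08 with PTK7-1 and 0.11 with PTK7-2, against 0.01 and 0.04 for all genes. With PTK7-1, 50 of 78 members (64.1%) were lower, against 46.4% of all genes. With PTK7-2, 59 of 78 (75.6%) were higher, against 57.7% of all genes. Both PTK7 comparisons use the same control arrays and so are not independent. Without the H1299 PTK7-1 array the median with PTK7-1 was 0.01, and without the H2009 PTK7-1 array it was -0.18. The 5 epithelial markers also read lower with PTK7-1 than with PTK7-2, 5 of 5 with a median of -0.26 and 0 past the threshold, and their part in the result was not tested.

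In complex I, the largest of the 5 sets, 29 of 33 members (87.9%) read lower with PTK7-1 than with PTK7-2 (median -0.22), against 54.5% of all genes. Of these, 2 passed the threshold, NDUFB10 and NDUFB3, and 11 had an unadjusted p under 0.05 (10.1% of all genes did, lower). Relative to controls the median was -0.09 with PTK7-1 and 0.18 with PTK7-2. With PTK7-1, 23 were lower (69.7%, against 46.4% of all genes), and with PTK7-2, 27 were higher (81.8%, against 57.7%). NDUFV1, the flavoprotein that binds NADH, read 9.04 with PTK7-1 and 9.28 with PTK7-2, against 9.32 with GFP and 9.33 with LUC, in H1299. In H2009 NDUFV1 read 9.02 with PTK7-1 and 9.18 with PTK7-2, against 8.99 with GFP and 9.13 with LUC, so that PTK7-1 lay below PTK7-2 in both lines, by less than 0.25 log2 units. NDUFS1, the largest iron-sulfur subunit, read 9.04 with PTK7-1 and 9.71 with PTK7-2, against 9.23 with GFP and 9.39 with LUC, in H1299. In H2009 NDUFS1 read 9.82 with PTK7-1 and 10.17 with PTK7-2, against 9.82 with GFP and 9.96 with LUC. PTK7-2 gave the highest NDUFS1 reading of each line, and the hairpin difference of -0.51 ± 0.14 did not pass (adjusted p = 0.0923).

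Other complex I members with PTK7-1 below PTK7-2 in both lines were NDUFA9, an accessory subunit near the junction of the arms, at -0.70 ± 0.16 (adjusted p = 0.0634), NDUFB7 at -0.64 ± 0.16 and NDUFS7, an iron-sulfur subunit next to the quinone site, at -0.52 ± 0.15. In H1299 NDUFA9 read 9.28 with PTK7-1 and 10.26 with PTK7-2, against 9.79 with GFP and 9.79 with LUC. In H2009 NDUFA9 read 8.96 with PTK7-1 and 9.38 with PTK7-2, against 9.35 with GFP and 9.20 with LUC, again with PTK7-1 lowest and PTK7-2 highest. None of these passed the threshold. The member with the largest difference in the other direction was NDUFA5, an accessory subunit of the matrix arm, at 0.23 ± 0.14, likewise not past the threshold. NDUFA5 read 7.98 with PTK7-1 and 7.84 with PTK7-2, against 7.95 with GFP and 7.98 with LUC, in H1299, and 8.40 with PTK7-1 and 8.08 with PTK7-2, against 8.04 with GFP and 8.01 with LUC, in H2009. Only the H2009 PTK7-1 array stood out among them.

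NDUFA7, an accessory subunit, had the smallest p-value of the members with PTK7-2. In H1299 NDUFA7 read 9.31 with PTK7-1 and 9.87 with PTK7-2, against 9.82 with GFP and 8.85 with LUC. In H2009 NDUFA7 read 9.20 with PTK7-1 and 9.60 with PTK7-2, against 9.36 with GFP and 8.92 with LUC. PTK7-2 was highest in each line, but by only 0.05 in H1299, since the controls themselves differed by 0.97 there. The PTK7-2 difference was 0.50 ± 0.14 (adjusted p = 0.120), and it was 0.15 with GFP alone as the control and 0.85 with LUC alone. NDUFB5, an accessory subunit of the membrane arm, had the same feature. It read 9.91 with PTK7-1 and 10.45 with PTK7-2, against 10.06 with GFP and 8.96 with LUC, in H1299 and 9.50 with PTK7-1 and 9.88 with PTK7-2, against 9.54 with GFP and 9.39 with LUC, in H2009, with the LUC array lowest in each line. NDUFB11, a membrane arm subunit encoded on the X chromosome, and NDUFV2, an iron-sulfur subunit of the NADH-oxidizing module, gave PTK7-2 differences of -0.25 ± 0.11 and 0.28 ± 0.12, neither past the threshold. In H1299 NDUFB11 read 10.23 with PTK7-1 and 10.02 with PTK7-2, against 10.37 with GFP and 10.31 with LUC. In H2009 NDUFB11 read 10.47 with PTK7-1 and 10.46 with PTK7-2, against 10.71 with GFP and 10.58 with LUC, with both PTK7 arrays below both controls in each line. NDUFV2 read 10.50 with PTK7-1 and 10.68 with PTK7-2, against 10.34 with GFP and 10.24 with LUC, in H1299. In H2009 NDUFV2 read 10.44 with PTK7-1 and 10.64 with PTK7-2, against 10.50 with GFP and 10.44 with LUC, where PTK7-1 lay level with LUC.

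Of the 4 SDH genes of complex II, succinate dehydrogenase, 3 were measured. On the probe sets used, all 3 were lower with PTK7-1 than with PTK7-2 as a mean over the lines, against 54.5% of all genes. Of these, 0 had an unadjusted p under 0.05 (10.1% of all genes did, lower). SDHA, the flavoprotein that oxidizes succinate, read 8.95 with PTK7-1 and 9.18 with PTK7-2, against 9.12 with GFP and 8.87 with LUC, in H1299. In H2009 SDHA read 10.66 with PTK7-1 and 10.65 with PTK7-2, against 10.56 with GFP and 10.62 with LUC. SDHC, a membrane anchor with the quinone site, read 10.65 with PTK7-1 and 10.64 with PTK7-2, against 10.49 with GFP and 10.64 with LUC, in H1299, and 11.25 with PTK7-1 and 11.28 with PTK7-2, against 11.18 with GFP and 11.25 with LUC, in H2009. For both genes the 4 readings of a line lay within 0.31 log2 units. The other membrane anchor, SDHD, read 10.74 with PTK7-1 and 11.06 with PTK7-2, against 10.76 with GFP and 10.74 with LUC, in H1299. In H2009 SDHD read 10.39 with PTK7-1 and 10.50 with PTK7-2, against 10.20 with GFP and 10.16 with LUC. PTK7-2 was the highest SDHD array of each line, at 0.31 ± 0.11 relative to controls (adjusted p = 0.224). SDHC has a second probe set, whose differences from controls were 0.23 with PTK7-1 and -0.14 with PTK7-2. The brighter one used here gave 0.06 and 0.07, so on the second set SDHC was higher with PTK7-1 than with PTK7-2. The second sets of SDHD and NDUFV2 gave PTK7-2 differences of 0.24 and 0.16, against 0.31 and 0.28 for the sets used. Their PTK7-1 differences were 0.03 and 0.13, against 0.10 and 0.09. In H2009 the second NDUFV2 set read 9.18 with PTK7-1 and 8.71 with PTK7-2, the reverse order of the set used. Whether the brighter sets of SDHC, SDHD, NDUFV2 and ATP5MK also read another copy of the gene was not tested.

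Complex III, cytochrome bc1, had all 7 members lower with PTK7-1 than with PTK7-2 as a mean over the lines (median -0.13), against 54.5% of all genes. Of the 7, 0 were past the threshold (3.73% of all genes were). UQCRC1, a core protein of the matrix side, read 7.38 with PTK7-1 and 8.32 with PTK7-2, against 7.90 with GFP and 7.95 with LUC, in H1299. In H2009 UQCRC1 read 7.72 with PTK7-1 and 8.09 with PTK7-2, against 7.79 with GFP and 7.90 with LUC. PTK7-1 was the lowest and PTK7-2 the highest array in each line, and the difference of -0.65 ± 0.17 had an adjusted p of 0.0805. UQCRC2, the partner core protein, read 10.11 with PTK7-1 and 10.28 with PTK7-2, against 10.43 with GFP and 10.52 with LUC, in H1299, and 10.51 with PTK7-1 and 10.59 with PTK7-2, against 10.45 with GFP and 10.62 with LUC, in H2009. Both PTK7 arrays were below both controls in H1299 (mean difference -0.28 ± 0.13, adjusted p = 0.709) and between them in H2009.

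UQCRH, the hinge protein, read 6.04 with PTK7-1 and 6.48 with PTK7-2, against 6.61 with GFP and 6.60 with LUC, in H1299. In H2009 UQCRH read 6.19 with PTK7-1, against 5.99 with GFP and 5.99 with LUC, and PTK7-2 was level with the controls. PTK7-1 was thus the lowest UQCRH array of H1299 and the highest of H2009. UQCRB, a quinone-binding subunit, read 6.35 with PTK7-1 and 6.71 with PTK7-2, against 6.58 with GFP and 6.30 with LUC, in H1299, and 6.36 with PTK7-1 and 6.24 with PTK7-2, against 6.46 with GFP and 6.74 with LUC, in H2009. In H2009 both PTK7 arrays were below both controls, and in H1299 the arrays interleaved. UQCRQ, a small subunit, read 8.44 with PTK7-1 and 8.57 with PTK7-2, against 8.79 with GFP and 8.69 with LUC, in H1299, and 8.75 with PTK7-1 and 8.75 with PTK7-2, against 8.92 with GFP and 8.81 with LUC, in H2009, with both PTK7 arrays lower than both controls in each line, at -0.17 ± 0.08 averaged over lines and hairpins (adjusted p = 0.560). UQCR10, another small subunit, read 9.51 with PTK7-1 and 10.19 with PTK7-2, against 8.80 with GFP and 9.86 with LUC, in H1299, where the controls differed by 1.06. In H2009 UQCR10 read 10.44 with PTK7-1 and 10.57 with PTK7-2, against 10.04 with GFP and 10.27 with LUC, with both PTK7 arrays above both controls. Its PTK7-2 difference was 0.64 ± 0.19 (adjusted p = 0.147), and its PTK7-1 difference of 0.23 ± 0.19 became -0.09 with LUC alone as the control.

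In complex IV, 14 of 17 members (82.4%) were lower with PTK7-1 than with PTK7-2 (median -0.16), against 54.5% of all genes. Beside COX8A, the largest difference among common subunits was in COX5B, a zinc-binding peripheral subunit. COX5B read 9.82 with PTK7-1 and 10.67 with PTK7-2, against 10.70 with GFP and 10.83 with LUC, in H1299. In H2009 COX5B read 10.05 with PTK7-1 and 10.58 with PTK7-2, against 10.56 with GFP and 10.33 with LUC. PTK7-1 was the lowest array in each line, and PTK7-2 was slightly below the controls in H1299 and above them in H2009. The COX5B difference with PTK7-1 was -0.67 ± 0.16 relative to controls (adjusted p = 0.103) and -0.68 ± 0.18 relative to PTK7-2 (adjusted p = 0.0892), neither past the threshold. COX4I1, the common form of the regulatory subunit that binds ATP, read 8.28 with PTK7-1 and 8.52 with PTK7-2, against 8.40 with GFP and 8.30 with LUC, in H1299, and 8.10 with PTK7-1 and 8.11 with PTK7-2, against 7.98 with GFP and 8.01 with LUC, in H2009. COX5A, its neighbour on the matrix side, read 9.98 with PTK7-1 and 10.11 with PTK7-2, against 10.11 with GFP and 10.01 with LUC, in H1299, and 10.21 with PTK7-1 and 10.26 with PTK7-2, against 10.15 with GFP and 10.10 with LUC, in H2009. For both genes the 4 readings of a line lay within 0.24 log2 units, so that subunits of the same complex differed in how far PTK7-1 and PTK7-2 stood apart.

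The tissue-restricted isoforms of complex IV behaved differently from each other. COX8C, the testis form of the COX8 subunit on chromosome 14, read 4.23 with PTK7-1 and 6.75 with PTK7-2, against 3.88 with GFP and 4.01 with LUC, in H1299. In H2009 COX8C read 7.95 with PTK7-1 and 8.29 with PTK7-2, against 7.90 with GFP and 8.02 with LUC. A single array, PTK7-2 in H1299, was more than 2 log2 units above the other 3 of its line, and the PTK7-2 difference of 1.57 ± 0.47 did not pass (adjusted p = 0.143). It passed without the PTK7-2 array of H2009, at 2.76 (adjusted p = 0.0131), where the difference rests on that H1299 array, and it was 0.38 without the H1299 array.

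COX6B2, the testis form of COX6B, read 4.00 with PTK7-1 and 4.09 with PTK7-2, against 4.20 with GFP and 4.24 with LUC, in H1299. In H2009 COX6B2 read 5.52 with PTK7-1 and 6.09 with PTK7-2, against 5.30 with GFP and 5.21 with LUC. Both PTK7 arrays were below both controls in H1299 and above both in H2009, and the difference between the lines in this respect, -0.72 ± 0.26, did not pass (adjusted p = 0.922). COX7B2, a paralogue of COX7B found mostly in testis, read 6.64 with PTK7-1 and 7.25 with PTK7-2, against 7.28 with GFP and 7.66 with LUC, in H1299, and 3.91 with PTK7-1 and 3.67 with PTK7-2, against 3.29 with GFP and 3.74 with LUC, in H2009. In H1299 both PTK7 readings were lower than both controls, PTK7-1 by more, and in H2009 PTK7-2 lay between the controls. The muscle forms COX6A2 and COX7A1 and the hypoxia-responsive form COX4I2 varied less than these. COX6A2 ranged from 5.75 to 6.26, COX7A1 from 3.94 to 4.25 and COX4I2 from 4.29 to 4.68 over the 8 arrays. In H2009 COX6A2 was above both controls, by 0.18 with PTK7-1 and 0.27 with PTK7-2. In H1299 both PTK7 readings of COX6A2 lay between the controls.

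In ATP synthase, 14 of 18 members (77.8%) were lower with PTK7-1 than with PTK7-2 (median -0.16), against 54.5% of all genes. Of these, 5 had an unadjusted p under 0.05 (10.1% of all genes did, lower). ATP5F1A, the alpha subunit of the catalytic head, read 10.04 with PTK7-1 and 10.34 with PTK7-2, against 10.28 with GFP and 10.39 with LUC, in H1299. In H2009 ATP5F1A read 9.25 with PTK7-1 and 9.46 with PTK7-2, against 9.31 with GFP and 9.39 with LUC, with PTK7-1 the lowest array in each line. ATP5F1B, the catalytic beta subunit, read 11.86 with PTK7-1 and 12.01 with PTK7-2, against 11.95 with GFP and 12.03 with LUC, in H1299, and 11.83 with PTK7-1 and 11.81 with PTK7-2, against 11.71 with GFP and 11.78 with LUC, in H2009. Its hairpin difference of -0.07 ± 0.13 was smaller than its standard error. ATP5IF1, the inhibitor of ATP hydrolysis by the enzyme, read 6.83 with PTK7-1 and 7.69 with PTK7-2, against 7.12 with GFP and 7.11 with LUC, in H1299. In H2009 ATP5IF1 read 7.03 with PTK7-1 and 7.49 with PTK7-2, against 7.40 with GFP and 7.29 with LUC. PTK7-1 was lowest and PTK7-2 highest in each line, with a difference of -0.66 ± 0.16 that did not pass (adjusted p = 0.0652).

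ATP5PB, subunit b of the peripheral stalk, was higher with both PTK7 hairpins than with both controls in each line. In H1299 ATP5PB read 6.45 with PTK7-1 and 6.67 with PTK7-2, against 6.31 with GFP and 5.64 with LUC. In H2009 ATP5PB read 6.74 with PTK7-1 and 6.66 with PTK7-2, against 6.61 with GFP and 6.45 with LUC. The margin over the nearer control was 0.14 in H1299 and 0.05 in H2009, against 0.66 between the H1299 controls. Its averaged difference was 0.38 ± 0.15 (adjusted p = 0.485). ATP5F1C, the gamma subunit of the rotor, was among the few members higher with PTK7-1 than with PTK7-2, at 0.15 ± 0.14 and not past the threshold. It read 10.37 with PTK7-1 and 10.30 with PTK7-2, against 10.32 with GFP and 10.11 with LUC, in H1299, and 10.55 with PTK7-1 and 10.31 with PTK7-2, against 10.51 with GFP and 10.53 with LUC, in H2009. ATP5MGL, a dim paralogue of membrane subunit g, ranged from 4.35 to 4.85 over the 8 arrays.

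**Figure D4:**
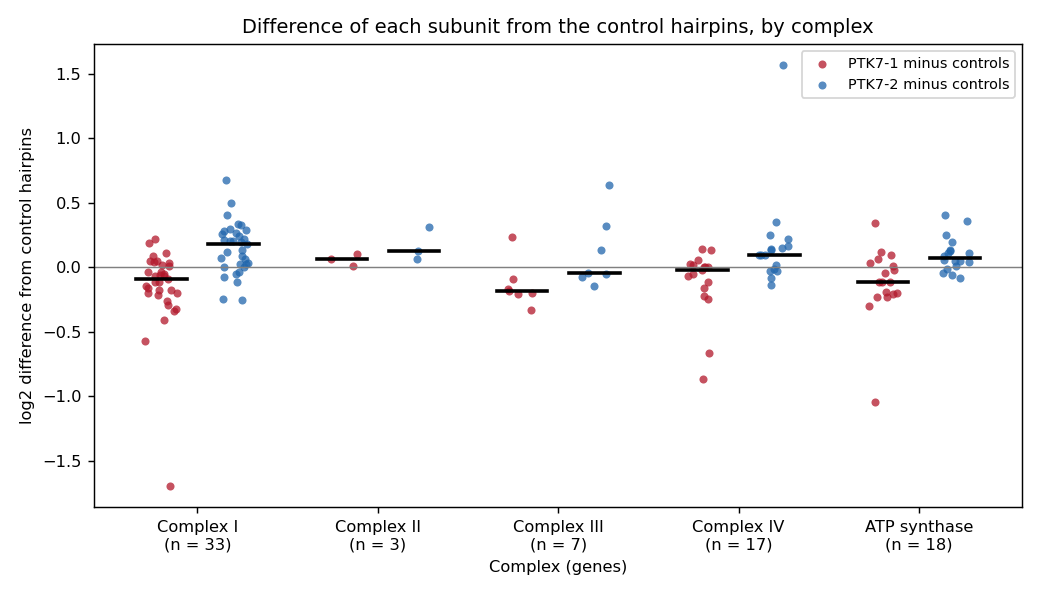
Log2 difference of each subunit gene from the control hairpins (vertical), mean over the lines, by complex (horizontal, with the number of genes), for PTK7-1 (red, left) and PTK7-2 (blue, right), 1 point per gene with a bar at the median. The medians with PTK7-1 lie below those with PTK7-2 in all 5 complexes, by 0.27 in complex I (-0.09 against 0.18) and by 0.06 in complex II (0.06 against 0.13).

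When PTK7-1 and PTK7-2 were averaged, the median member was close to that of all genes and few members passed. In the fit of group means used here, the difference between the PTK7 hairpins counts as error. This raises the standard error of members whose hairpins differ, so low counts of members do not show that an averaged effect is absent. Averaged over lines, the median member difference was 0.01, against 0.02 for all genes, and 0 members passed in limma (0% of genes did), with 2 at an unadjusted p under 0.05 (2.56%, against 9.88% of genes), NDUFB10 at -0.97 ± 0.40 (adjusted p = 0.485) and ATP5PB. With the hairpin as a replicate block, 1 member passed, NDUFB10 (adjusted p = 0.0443), against 0.81% of all genes. In H1299 the median was -0.05 and 0 members passed (0.00543% of genes did), with 1, ATP5PB, at an unadjusted p under 0.05 (7.48% of genes). In H2009 the median was 0.05 and 0 passed (0% of genes), with 1, COX6B2, at an unadjusted p under 0.05 (7.98% of genes). The difference between the lines had a median of -0.12, with 0 members past the threshold (0% of genes) and 1, COX6B2, at an unadjusted p under 0.05 (5.17% of genes). The control hairpins were compared with each other in the fit of hairpin plus line, as PTK7-1 and PTK7-2 were, and not in the fit of group means. LUC minus GFP had a median of -0.02 and called 0 members in limma (0% of genes), with 3 at an unadjusted p under 0.05 (3.85%, against 3.65% of genes). These 3 were NDUFA7 at -0.70 ± 0.16, NDUFB5 at -0.63 ± 0.24 and UQCR10 at 0.65 ± 0.22, which were also the common subunits with the smallest p-values with PTK7-2.

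The wider machinery of oxidative phosphorylation was read from lists of other genes. These were assembly factors, electron carriers with ubiquinone synthesis and cytochrome c1, citric acid cycle enzymes, transcriptional regulators and mitochondrial DNA factors. The lists also held 2 complex I subunits outside the naming rule and the 13 mitochondrially encoded subunits. In all, 106 of 130 listed genes were measured. Of the 13 mitochondrially encoded subunits, 0 were measured here. Between PTK7-1 and PTK7-2, 9 of the 106 passed (8.49%, against 3.73% of all genes), 6 lower with PTK7-1 (1.79% of genes) and 3 higher (1.94% of genes), and the list median was -0.12. NUBPL, which delivers iron-sulfur clusters to complex I, read 5.37 with PTK7-1 and 6.58 with PTK7-2, against 6.35 with GFP and 6.30 with LUC, in H1299. In H2009 NUBPL read 6.68 with PTK7-1 and 7.56 with PTK7-2, against 7.28 with GFP and 7.23 with LUC. PTK7-1 was the lowest array of each line by over 0.5 log2 units, and NUBPL fell with PTK7-1 relative to controls (-0.76 ± 0.13, adjusted p = 0.0417) and relative to PTK7-2 (-1.04 ± 0.15, adjusted p = 0.0144). NUBPL was the only one of the 106 called with PTK7-1 relative to controls (0.943%, against 1.23% of all genes), a share no higher than that of all genes.

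The other genes called lower with PTK7-1 than with PTK7-2 were the complex III assembly factors BCS1L (-0.66 ± 0.13) and UQCC3 (-0.74 ± 0.14), the complex IV copper factor COA6 (-0.65 ± 0.13), and COQ4 (-0.72 ± 0.13) and COQ9 (-0.94 ± 0.16), which act in ubiquinone synthesis. Called higher with PTK7-1 were the mitochondrial DNA packaging and transcription factor TFAM (0.85 ± 0.13), the mitochondrial DNA polymerase POLG (0.97 ± 0.16) and IDH3A (0.90 ± 0.15), a subunit of the NAD-dependent isocitrate dehydrogenase. TFAM read 9.83 with PTK7-1 and 8.97 with PTK7-2, against 9.43 with GFP and 9.39 with LUC, in H1299. In H2009 TFAM read 9.03 with PTK7-1 and 8.18 with PTK7-2, against 8.75 with GFP and 8.59 with LUC, with PTK7-1 above and PTK7-2 below both controls in each line. Relative to controls, 3 of the 106 were called with PTK7-2 (2.83%, against 2.15% of all genes), close to the share over all genes. COQ4 was higher (0.61 ± 0.11), and IDH3A (-1.02 ± 0.13) and ATPAF1, an assembly factor of the ATP synthase head (-0.75 ± 0.11), were lower. IDH3A read 9.70 with PTK7-1 and 8.93 with PTK7-2, against 10.10 with GFP and 9.93 with LUC, in H1299. In H2009 IDH3A read 10.70 with PTK7-1 and 9.67 with PTK7-2, against 10.63 with GFP and 10.61 with LUC, with PTK7-2 the lowest array of each line. By list, the hairpin median was -0.39 for the 6 complex III assembly factors, with 2 called, and -0.31 for the 3 complex II assembly factors, with 0 called. For the 17 genes of electron carriers, ubiquinone synthesis and cytochrome c1 it was -0.27, with 14 lower and 3 higher. The 2 called among these 17 were COQ4 and COQ9, of ubiquinone synthesis. The hairpin median of a list does not describe each of its genes. It was nearer 0 for complex I assembly (-0.13, 1 called), complex IV assembly (-0.13, 1 called), ATP synthase assembly (-0.11, 0 called) and the citric acid cycle (-0.11, with IDH3A called higher). For the 15 mitochondrial DNA factors the median was 0.02, with 2 called higher, and for the 11 transcriptional regulators it was 0.14, with 0 called. The 2 complex I subunits outside the naming rule had a median of -0.006, 1 lower and 1 higher, with 0 called.

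The lines themselves differed in these genes under control hairpins. Between H1299 and H2009, 20 of 78 members passed (25.6%, against 24.8% of all genes), a share close to that of all genes, with 6 lower in H1299 (7.69%, against 12.3%) and 14 higher (17.9%, against 12.5%). The median member was 0.19 higher in H1299, against 0.06 for all genes. Without any single control array the count was 7 to 11. The control hairpins are the same in both lines, and with the hairpin as a replicate block, a fit added after the data were seen, 24 members passed (30.8%, against 31.3% of all genes), among them all of the 20 but NDUFB9.

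Of the tissue-restricted isoforms of complex IV, whose readings are given above, 3 passed. COX7B2 was higher in H1299, at 3.96 ± 0.26 (adjusted p = 7.43e-05), and COX8C was lower, at -4.02 ± 0.68 (adjusted p = 0.00545). COX6B2 was lower in H1299, at -1.04 ± 0.19 (adjusted p = 0.00676). The lower line of each read between 3.29 and 4.24 under control hairpins, within or below the range of the marker lists for other cell types, so that no fold is given for them. Each line thus read higher for a different testis form, COX7B2 in H1299 and COX8C with COX6B2 in H2009. Of the common partners, COX7B was also higher in H1299, at 1.00 ± 0.19, and COX6B1 at 0.90 ± 0.19, both past the threshold.

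SDHA was the common subunit furthest below in H1299, averaging 8.99 ± 0.18 in H1299 and 10.59 ± 0.04 in H2009 (SD, n = 2 each). That difference of -1.60 ± 0.14, or 3.02-fold, passed (adjusted p = 2.96e-04). SDHC was also lower in H1299 (-0.65 ± 0.11), while SDHD was higher (0.57 ± 0.14), so that subunits of complex II differed between the lines in both directions. NDUFS6, a complex I subunit also encoded on chromosome 5, read 7.68 with GFP and 7.65 with LUC in H1299, against 8.83 with GFP and 8.71 with LUC in H2009. It was 2.15-fold lower in H1299 (-1.11 ± 0.14, adjusted p = 0.00142). NDUFV3, a small complex I subunit, was lower at -0.46 ± 0.13.

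On the higher side, ATP5MJ, a small membrane subunit of ATP synthase, read 9.98 with GFP and 10.22 with LUC in H1299, against 8.38 with GFP and 8.44 with LUC in H2009. This is 3.23-fold (1.69 ± 0.18, adjusted p = 7.56e-04). The complex I subunit NDUFB1, encoded on chromosome 14 as ATP5MJ is, was 2.29-fold higher in H1299 (1.19 ± 0.26), and ATP5F1A was 1.98-fold higher (0.99 ± 0.15, adjusted p = 0.00317). The other 8 called higher in H1299 were NDUFA1, NDUFB9, SDHD, UQCRH, COX6C, ATP5PF, ATP5MC2 and ATP5MF, between 0.39 and 0.86.

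**Figure D5:**
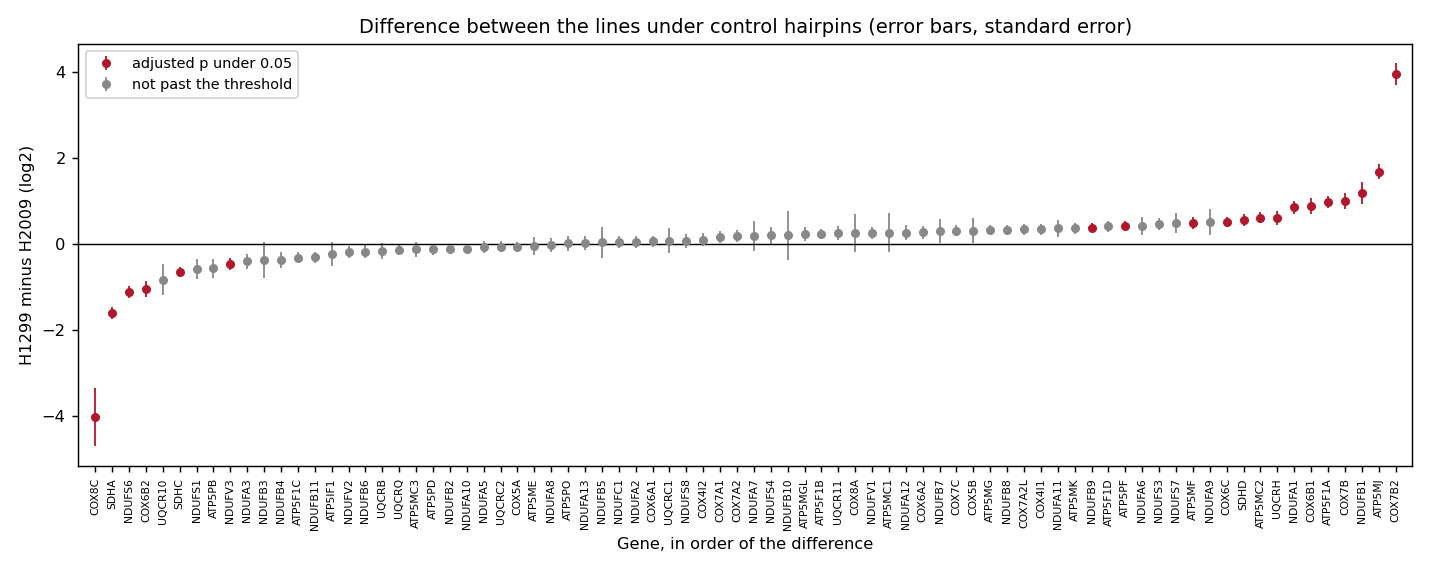
H1299 minus H2009 log2 difference under control hairpins (vertical) for the 78 subunit genes, ordered by size (horizontal), 2 arrays per line, with bars of 1 standard error. Red points passed the threshold, 6 below 0 and 14 above. COX8C at -4.02 and COX7B2 at 3.96 lie far from the rest.

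The measured neighbours on the chromosome differed the same way for some of these genes and not for others. Of the 20 members that passed, 12 had a neighbour median of the same sign beyond 0.1 log2 units, 4 one of the same sign within 0.1, and 4 one of the opposite sign. Of all genes, 58.5% were higher in H1299, and no such count is given for the neighbours of other genes. How far this agreement of sign exceeds that of other genes was not tested. Among 13 measured genes next to SDHA, up to 10 on each side, the median H1299 minus H2009 difference was -0.81 and 7 were called lower in H1299. Of 20 neighbours of NDUFS6, 8 were called lower in H1299, with a median of -0.39. The 20 neighbours of NDUFB1 had a median of 0.96 with 13 called higher, and those of ATP5MJ 0.82 with 11 called higher. Neighbours of ATP5MC2, ATP5MF and ATP5F1A had medians of 0.55, 0.60 and 0.40, with 11, 9 and 9 called higher. The neighbour median lay within 0.1 of 0 for COX7B2 (0.01), COX7B (0.09), COX6B2 (-0.01), ATP5PF (0.02), NDUFV3 (0.07), NDUFB9 (-0.04) and UQCRH (-0.04), the last 3 opposite in sign to the member. Of the neighbours of UQCRH, 5 were called lower in H1299 and 1 higher, and of those of NDUFB9, 3 lower and 1 higher. The neighbours of COX8C had a median of 0.90, also opposite to COX8C itself. What sets such stretches apart between the lines was not tested.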

How the data were processed

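Total RNA was measured on 8 Affymetrix arrays with a biotin label, per the labels' protocols. The log2 expression values per probe set deposited by the authors came from RMA. The submitters' processing notes name R 2.14.0. This method corrects background, normalizes between arrays, summarises the probes of a set and compresses differences of dim genes. Of 32321 probe sets, 19158 had a single gene symbol, and the brightest set per gene was kept (18404 genes, with several sets for 6 members). Probe sets with several symbols, 8 of which include a symbol of the rule (NDUFS5, NDUFC2 and ATP5F1E among them), were not used here, and signal from near-identical gene copies cannot be told apart. All 78 members were matched by gene ID.

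The tests are limma's (version 3.58.1, R 4.3.3), moderated by empirical Bayes, and p-values were adjusted by Benjamini-Hochberg across the 18404 genes with a threshold of 0.05. Each hairpin was tested in a fit of hairpin plus line (3 residual degrees of freedom), the lines and averages in a fit of group means (4). The labels give no repeat cultures or batches, so a p-value measures only how far these arrays vary, and the number of arrays limits the precision. Both lines received the same 4 hairpins, per the labels, and same-hairpin arrays deviated together from their group means (r = 0.407 for PTK7 and 0.230 for control hairpins, across genes), so a fit with the hairpin as a replicate block was run for the averages, the lines and their differences. Scripts were tested on simulated data.

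Named were, per comparison, up to 3 members per direction by unadjusted p and up to 6 per direction past the threshold, the catalytic or defining subunits, the tissue-restricted isoforms, and up to 2 pathway genes per list. Of the pathway genes so named, those past the threshold are printed, and genes past it only between the PTK7 hairpins were named after their values were seen, as were NDUFA9, NDUFB7, NDUFS7, ATP5MC2, ATP5MC3 and those of the last 8 genes listed between the lines that no part of the rule covers. Members and lists were chosen with earlier results of these data known. Alternative settings were renormalization by quantiles or by array medians, a filter that drops the dimmest 40% of genes, averaging the probe sets of a gene, trended or robust priors, an additive fit, a single control hairpin, and leaving out each array. Promoter windows are from RefSeq on GRCh38.p14. Python 3.11.15 with matplotlib 3.10.9 drew the figures.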

Additional observations from a re-analysis of the deposited data

How the results depend on the processing

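Among counts of members called and median member differences, 245 stayed close to the reported value under an alternative (a count within 1.5 times, a median within 1 SD of the arrays' or lines' medians, 0.0196 to 0.152 log2 units by comparison) and 27 did not, and 26 of these 27 came from leaving out 1 array. With each array left out in turn, the number of members called ranged from 0 to 3 for PTK7-1 relative to controls, 0 to 1 for PTK7-2 relative to controls (1, COX8C, without PTK7-2 in H2009), 0 to 7 between the PTK7 hairpins, 0 to 1 for the averaged difference and 0 to 1 for H1299 (COX8C, without PTK7-1 in H1299, in both), and 7 to 24 between the lines under control hairpins. The median member difference ranged from 0.0798 to 0.127 for PTK7-2, from -0.210 to 0.0776 in H1299, from -0.254 to 0.0350 for the difference between lines, and from -0.0554 to 0.0416 for LUC minus GFP. Within that wide tolerance medians still moved much, from -0.291 to -0.101 for PTK7-1 minus PTK7-2, from -0.181 to 0.0137 for PTK7-1 and from -0.0537 to 0.0683 for the averaged difference, both of which changed sign, and from 0.00535 to 0.118 in H2009. With the hairpin as a replicate block the averaged comparison called 1 member, NDUFB10, in place of 0, and the block changed no call in either line or in their difference. Between the lines under control hairpins it called 24 in place of 20. The block refers to these 4 hairpins. Quantile normalization and median centring moved the median of all genes by at most 0.05 log2 units. Removing the dimmest 40% of genes left 73 members and dropped COX4I2, COX6B2, COX7A1, COX7B2 and ATP5MGL. Among single members, 857 values kept direction and side of the threshold, 50 lost it, 3 passed it and 1 moved (UQCR10 with LUC alone as the control); 0 were reversed past the threshold. NDUFB3 between the PTK7 hairpins held in 7 of 14 alternatives and COX8A with PTK7-1 in 8 of 16. With 1 array per hairpin and line, dim genes near background cannot be told from absent ones, and detection calls were not used here.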
